A study of Mus musculus with 14 samples.

Results

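The ligand genes Fgf4, Fgf5, Fgf8, Fgf15 and Fgf17, the receptor genes Fgfr1 and Fgfr2 and the feedback genes Spry2, Spry4 and Dusp6 were followed. They were read through the called regions of 5 antibodies in mouse embryonic stem cells (mESC) with and without an induced Smarcb1 knockdown (kd). These 10 genes were chosen by name for their place in fibroblast growth factor (FGF) signalling, out of 21000 protein-coding genes with a curated RefSeq transcript. The cells were 81K1, a line based on OG2 mESC and derived from clone K1, in which an anti-Smarcb1 shRNA stands at the Rosa26 locus under a doxycycline-dependent promoter. Control (ctrl) cells carried the same cassette and were left untreated, whereas Smarcb1 kd cells received 1 µg doxycycline per ml medium daily and were fixed at 72 h. Both were grown in serum with LIF on gelatine. Chromatin was immunoprecipitated for the proteins Smarca4 and Ezh2 and for the histone marks H3K27me3, H3K27ac and H3K4me3, with 1 library for each in ctrl and kd, and the remaining 4 of the 14 samples were inputs. No test between the conditions could therefore be made, and a region called in 1 condition alone is a difference between 2 lists, not a measured loss or gain. Doxycycline was given to the kd cells alone, so an effect of doxycycline itself and an effect of the knockdown cannot be told apart in these lists. The lists also hold no measure of Smarcb1, so the knockdown could not be checked here.

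FGF ligands bind receptor tyrosine kinases at the cell surface, which pass the signal through Ras, Raf, Mek and Erk to the nucleus. Erk activity switches on its own inhibitors, among them the Sprouty proteins, which act upstream in the cascade, and the phosphatase Dusp6, which removes the activating phosphates from Erk. In mESC, Fgf4 is the main ligand made by the cells themselves and primes them for differentiation, while Fgf5 marks the later, primed state of the epiblast. Smarcb1 and the ATPase Smarca4 are subunits of the BAF chromatin remodelling complex. Ezh2 is the enzyme of the Polycomb complex PRC2 that writes H3K27me3, a mark of silenced developmental genes. H3K4me3 lies at promoters and H3K27ac at active promoters and enhancers, and a promoter with both H3K4me3 and H3K27me3 is termed bivalent.

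The Smarca4 lists held 79014 peaks in ctrl and 72339 in kd, and the Ezh2 lists 6708 and 5364. H3K27me3 islands numbered 22909 and 18320, H3K27ac islands 39091 and 51100, and H3K4me3 islands 26130 and 33506. The lists carry no read counts, so depth is unknown here, and neither peak scores nor island p-values were scaled between libraries. Strength is therefore given as the percentage of regions of the same list that were weaker. The ctrl and kd lists also differed in kind across the genome. Of 2217 Ezh2 peaks that overlapped a single peak of the other list, 95.8% were wider in kd, with a median width of 582 bp in ctrl and 1058 bp in kd. H3K4me3 and H3K27ac covered the TSS of 7 of 8 stem cell marker genes in both conditions, among them Pou5f1, Sox2 and Nanog, whereas the outermost annotated TSS of Esrrb held neither. Of the 14 neural, mesoderm, endoderm and fibroblast markers, 0 had H3K27ac at the TSS in ctrl and 1, Sox1, had it in kd. Of all genes, 16.1% had it in ctrl and 31.6% in kd. At the same 14, H3K4me3 was called at 7 in ctrl and 10 in kd (58.9% and 62.9% of all genes). Ezh2 was called at 8 and 10 (7.57% and 13.3%).

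All 10 genes are placed on GRCm38 (mm10) by their curated RefSeq transcripts, and a gene region ran from 1 kb upstream of the outermost transcription start site (TSS) to the transcript end. Promoter sequence, the 250 bases before the TSS, was at hand for Fgf4, Fgf5, Fgfr2, Spry2 and Dusp6 from RefSeq (GRCm38.p6). No promoter sequence is given for Fgf8, Fgf15, Fgf17, Fgfr1 and Spry4. Shown are a ligand without and a ligand with Ezh2, a receptor with Ezh2 and a feedback gene without it, 5′ to 3′ in the direction of transcription, with every CpG in capitals.
Fgf4 (chr7:144861136-144861385, plus strand): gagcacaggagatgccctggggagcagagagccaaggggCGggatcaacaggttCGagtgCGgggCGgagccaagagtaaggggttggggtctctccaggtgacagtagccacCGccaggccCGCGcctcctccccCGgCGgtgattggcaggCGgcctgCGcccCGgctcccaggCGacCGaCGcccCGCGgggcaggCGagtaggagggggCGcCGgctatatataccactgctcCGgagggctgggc
Fgf5 (chr5:98253934-98254183, plus strand): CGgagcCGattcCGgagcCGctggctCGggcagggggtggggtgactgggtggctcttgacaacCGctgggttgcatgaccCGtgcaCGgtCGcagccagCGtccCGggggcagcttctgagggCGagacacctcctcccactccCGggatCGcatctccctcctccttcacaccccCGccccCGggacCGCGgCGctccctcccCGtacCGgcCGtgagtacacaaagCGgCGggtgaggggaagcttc
Fgfr2 (chr7:130266809-130267058, minus strand): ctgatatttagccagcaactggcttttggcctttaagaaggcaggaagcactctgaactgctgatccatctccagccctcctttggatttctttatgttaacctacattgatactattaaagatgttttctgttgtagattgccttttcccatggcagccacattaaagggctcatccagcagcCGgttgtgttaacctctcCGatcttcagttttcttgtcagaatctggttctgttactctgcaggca
Dusp6 (chr10:99262981-99263230, plus strand): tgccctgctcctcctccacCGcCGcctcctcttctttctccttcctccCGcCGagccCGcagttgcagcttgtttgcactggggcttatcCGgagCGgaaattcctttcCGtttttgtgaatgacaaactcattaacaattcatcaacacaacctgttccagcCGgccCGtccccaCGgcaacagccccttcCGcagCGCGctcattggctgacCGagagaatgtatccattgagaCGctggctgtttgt
The Fgf4 promoter held 21 CpG, that of Fgf5 24, that of Spry2 23 and that of Dusp6 16, against a median of 6.0 over the 32851 promoters of the table. The Fgfr2 stretch held 2, and 18.8% of promoters had fewer. Ezh2 and H3K27me3 lay over the Fgf5 stretch and not over the Fgf4 stretch. A relation of CpG content to these calls was not tested. The box GGGCGG, searched on both strands, occurred 2 times in the Fgf4 and 1 time in the Fgf5 stretch, in none of the other 3, and in 32.7% of all promoters. CCAAT, likewise on both strands, occurred 1 time each in Fgf4 and Dusp6 and in 33.8% of all promoters. Smarca4 peaks covered 100% of the Fgf4 and Fgf5 stretches in both conditions and 0% of the Fgfr2 stretch, where the peak began inside the transcript. Over the Dusp6 stretch, the Smarca4 peak covered 39.6% of the bases in ctrl and 100% in kd.

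At the TSS (1 kb to either side), the 10 genes fell into 2 sets of 5. Fgf5, Fgf8, Fgf15, Fgfr1 and Fgfr2 carried Ezh2, H3K27me3, H3K4me3 and Smarca4 in ctrl and no H3K27ac. Fgf4, Fgf17, Spry2, Spry4 and Dusp6 carried H3K4me3 and Smarca4 with neither Ezh2 nor H3K27me3. Smarca4 was called at the TSS of all 10 genes in both conditions, beside 65.1% of all protein-coding genes in ctrl and 66.1% in kd. H3K4me3 was likewise called at all 10, beside 58.9% and 62.9%. None of the 10 genes thus lacked a call of the remodeller or the promoter mark at its start, in either condition. With an H3K4me3 p-value of at most 1e-20 asked for, the ctrl call at Fgf8 was lost and 9 of 10 remained. Ezh2 was called at 5 of 10 in ctrl, against 7.57% of all genes, and at 4 of 10 in kd, against 13.3%. The ctrl calls at Fgf15 and Fgfr1 were weak, and with a score of at least 50 asked for, 3 of 10 remained in ctrl. H3K27me3 was called at the same 5 genes in both conditions, against 35.7% in ctrl and 29.6% in kd. H3K4me3, H3K27me3 and Ezh2 met at 5 of the 10 TSS in ctrl (6.62% of all genes) and at 4 in kd (12.6%). The 4 genes with this bivalent state and Ezh2 in both conditions were Fgf5, Fgf8, Fgf15 and Fgfr2. With the stricter limits just given, Fgf8 lost its ctrl call of H3K4me3 and Fgf15 its ctrl call of Ezh2. H3K27ac was called at 3 of 10 in ctrl (Fgf4, Spry2 and Spry4; 16.1% of all genes) and at 6 of 10 in kd, with Fgf17, Fgfr1 and Dusp6 added (31.6% of all genes). A TSS call of H3K27ac in kd alone was thus seen at 3 of 10 genes, where 17.2% of all genes had one, and in ctrl alone at 0 of 10, where 1.71% had one. H3K4me3 with H3K27ac and without H3K27me3 thereby described 3 genes in ctrl (13.9% of all) and 5 in kd (26.0%). H3K4me3 with neither described Fgf17 and Dusp6 in ctrl (22.9% of all) and 0 of 10 in kd (14.3%).

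**Figure D1:**
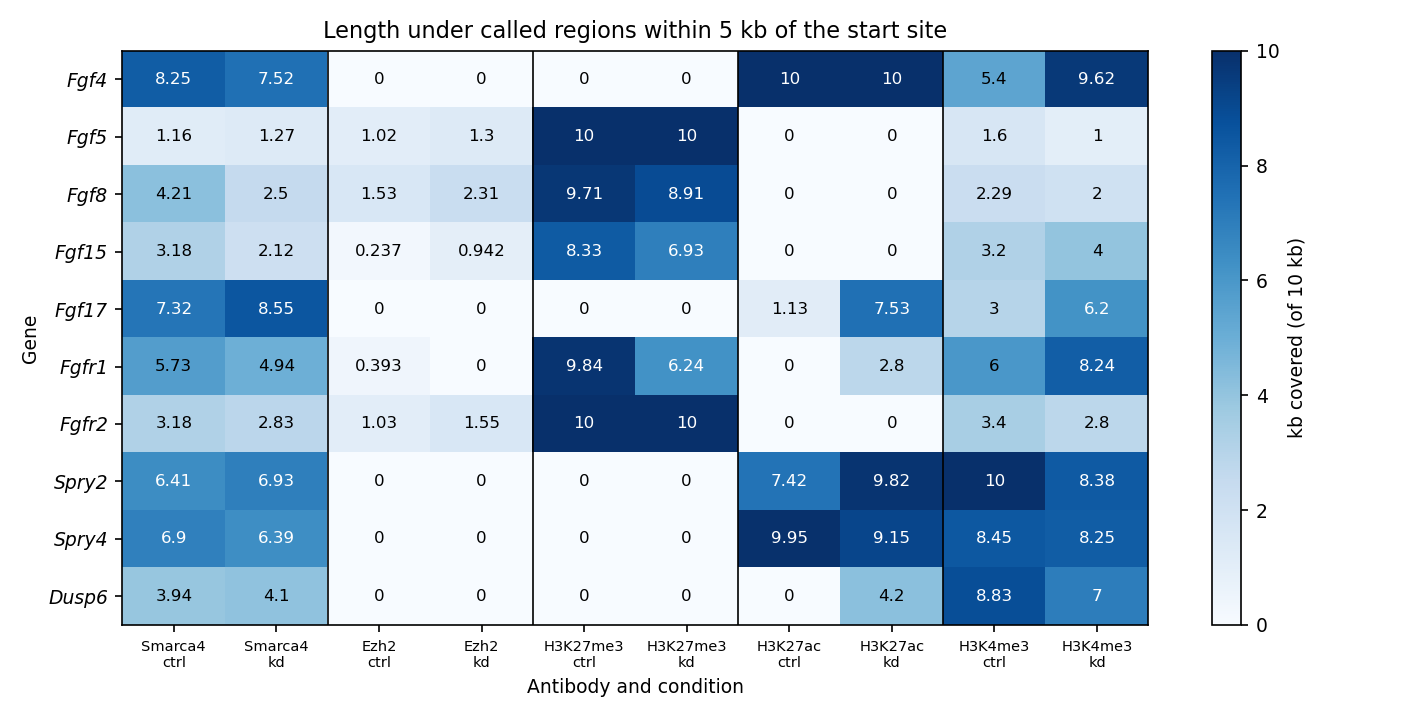
Length (kb, of 10 kb) under called regions within 5 kb of the TSS of each gene (rows) for each antibody and condition (columns), 1 library each. H3K27me3 covered between 6.24 and 10.0 kb at the 5 genes with Ezh2 in ctrl and 0 kb at the other 5, whereas H3K27ac in ctrl covered 0 kb at the 5 with Ezh2.

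Over whole gene regions the counts were close to those at the TSS. Smarca4 and H3K4me3 each had a call in all 10 gene regions in both conditions, beside 71.2% (ctrl) and 72.6% (kd) of all genes for Smarca4 and 64.0% and 68.8% for H3K4me3. Ezh2 had a call in 5 of 10 in ctrl (12.3% of all) and 4 of 10 in kd (15.3%), and H3K27me3 in 5 of 10 in both (41.9% and 34.9%). H3K27ac had a call in 5 of 10 in ctrl (31.6%) and 6 of 10 in kd (47.8%). The gene that differed for Ezh2 was Fgfr1, called in ctrl alone (2.93% of all genes), and the gene that differed for H3K27ac was Dusp6, called in kd alone (19.1%).

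Fgf5 (chr5:98254184-98277033, plus strand) codes for the ligand that marks the primed epiblast. In ctrl a single Ezh2 peak lay from -0.389 to 0.630 kb of the TSS with a score of 189, stronger than 88.3% of the list. In kd it ran from -0.375 to 0.922 kb with a score of 386, stronger than 82.9%. The peak was thus longer in kd, and its standing in its own list was similar. H3K27me3 spread far beyond it, in an island of 16.6 kb in ctrl and 15.2 kb in kd over the TSS, and covered 53.2% of the gene region with 20 kb to either side (the window) in ctrl and 50.4% in kd. H3K4me3 was narrow, 1.60 kb in ctrl and 1.00 kb in kd. No H3K27ac island was called anywhere in the Fgf5 window in either condition. Smarca4 was present as 2 peaks in each condition, and the peak at the TSS was stronger than 91.2% of its list in ctrl (score 219) and 77.2% in kd (score 130).

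Fgf8 (chr19:45736491-45742894, minus strand) codes for a ligand of gastrulation and of signalling centres in the embryo. Its TSS held 2 Ezh2 peaks in ctrl, of 1.30 kb with a score of 332 and of 0.225 kb with a score of 42. In kd 1 peak of 2.31 kb with a score of 676 spanned both. The stronger peak outranked 95.8% of the ctrl list and that of kd 94.5%. A second Ezh2 peak, 5.26 to 6.08 kb downstream of the TSS with its centre in a coding exon, was called in kd alone (score 154). An H3K4me3 island of 1.00 kb, also called in kd alone, lay over the same stretch, from 5.09 to 6.09 kb. Smarca4 peaks were called there in both conditions. The H3K27me3 island over the gene was 22.4 kb long in ctrl and 20.2 kb in kd. H3K27ac was not called at Fgf8 itself, and the 1.40 kb island in its window, called in kd alone, lay in the neighbouring gene Npm3.

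Fgf15 (chr7:144896532-144900953, plus strand) codes for the mouse counterpart of FGF19, a ligand of the developing brain and, in the adult gut, a regulator of bile acid synthesis. It showed the largest shift in standing of Smarca4 among the 10 genes. The Smarca4 peak at the TSS was 2.10 kb wide with a score of 370 in ctrl, stronger than 97.7% of the list. In kd the strongest peak at the TSS had a score of 71 and outranked 55.8%. For Ezh2 the order was the opposite. The ctrl peak of 0.237 kb had a score of 37 and outranked 12.5% of the list, while the kd peak of 0.942 kb had a score of 143 and outranked 53.4%. H3K27me3 was called as 5 islands in the Fgf15 window in ctrl and as 1 island in kd, with 25.5 and 7.20 kb covered. The island over the gene was present in both conditions (9.80 and 7.20 kb), and the 4 called in ctrl alone lay to either side of it. H3K27ac was absent from the ctrl window and was called in kd in 2 islands, 11.7 to 13.1 kb and 16.7 to 18.7 kb downstream of the TSS, both outside the gene. The neighbouring gene of both was LTO1, and the second island ran over the LTO1 TSS, which had H3K4me3 in both conditions.

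**Figure D2:**
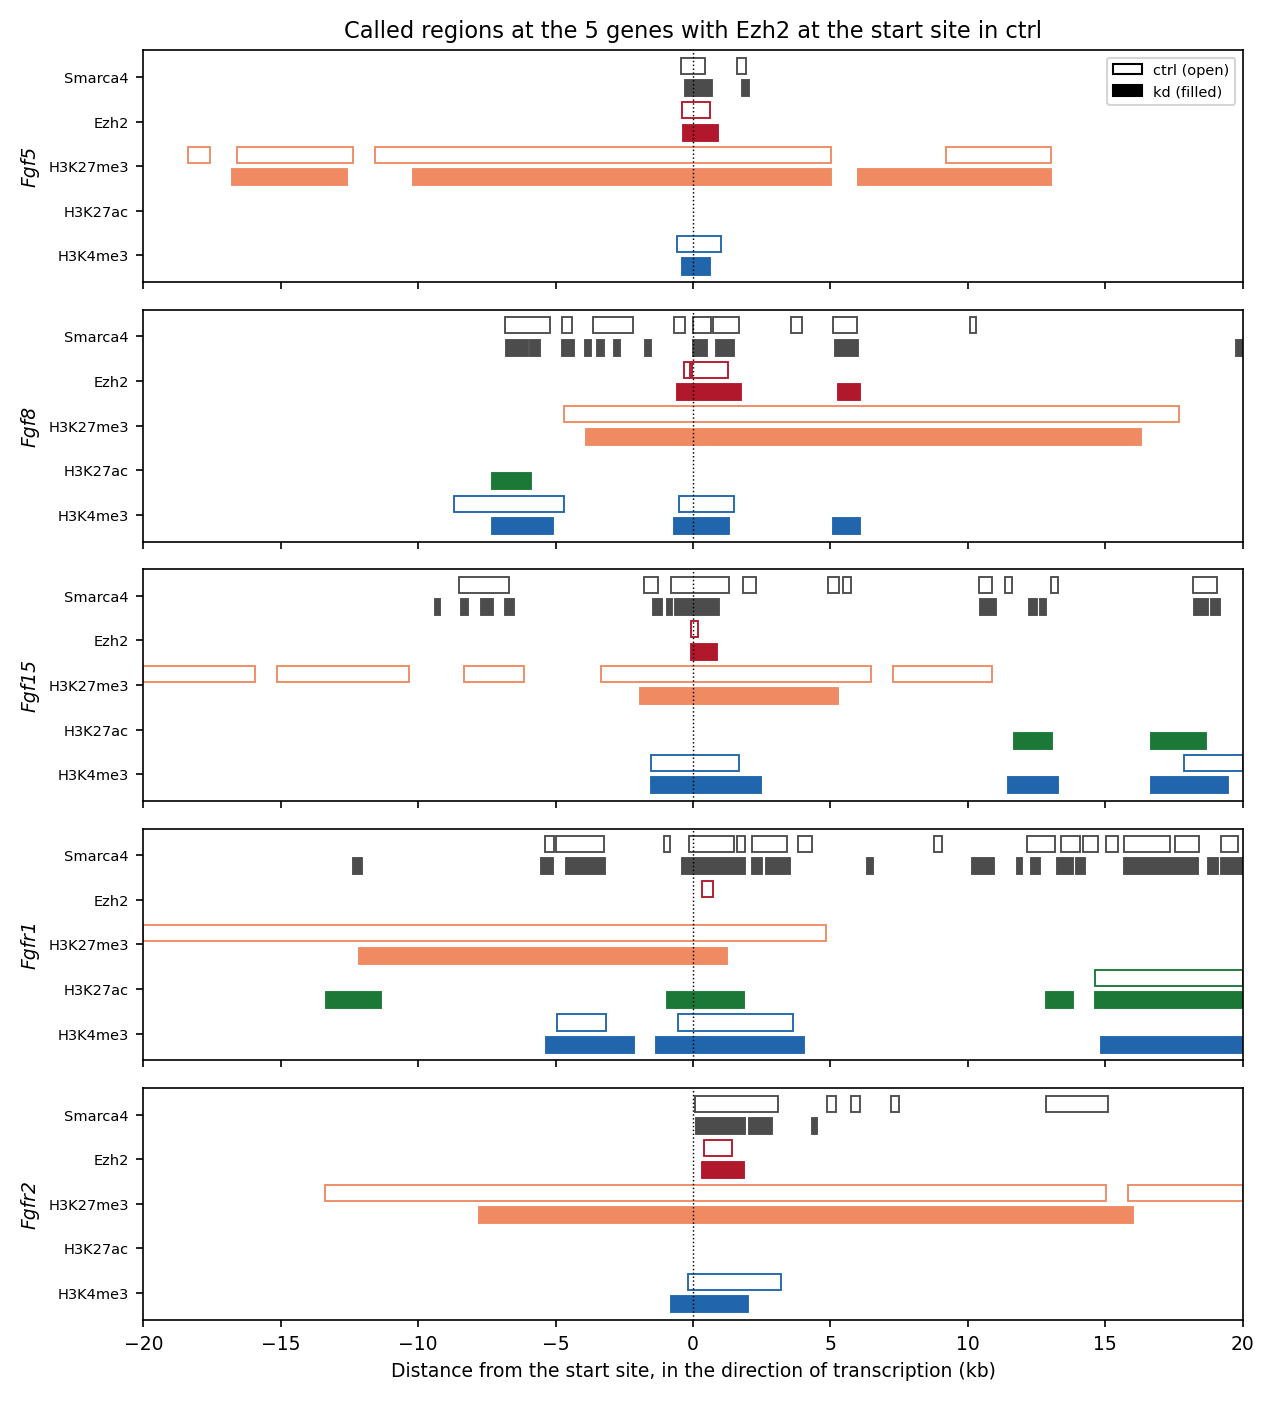
Called regions of the 5 antibodies from 20 kb upstream to 20 kb downstream of the TSS (dotted line) of Fgf5, Fgf8, Fgf15, Fgfr1 and Fgfr2; open bars are ctrl, filled bars kd, and the height of a bar carries no value. Ezh2 lies at each TSS in ctrl inside a wide H3K27me3 island and at all but Fgfr1 in kd, and H3K27ac reaches a TSS at Fgfr1 in kd alone.

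Fgf4 (chr7:144861386-144865245, plus strand) lies 35.1 kb from Fgf15 on the same strand, so that their windows shared 9.71 kb. No Ezh2 peak was called in the Fgf4 window in either condition. H3K27ac covered the gene in an island of 16.4 kb in ctrl, from -10.8 to 5.61 kb, and in one of 12.4 kb in kd. That island outranked 84.4% of the ctrl list and 99.4% of the kd list. H3K4me3 was 5.40 kb wide in ctrl and 9.80 kb in kd. Smarca4 was densely called, with 13 peaks in the window in ctrl and 21 in kd, covering 16.4 and 14.8 kb. The TSS peak stood at about the same place in both lists, above 95.4% in ctrl and 94.9% in kd. H3K27me3 stayed off the gene. On the upstream side it covered the neighbouring ligand gene Fgf3, in an island of 37.0 kb in ctrl that ended at -14.4 kb from the Fgf4 TSS and in one of 9.80 kb in kd that ended at -17.2 kb. Downstream, 2 islands of 7.0 and 4.8 kb between Fgf4 and Fgf15 were called in ctrl alone.

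The 3′ UTR of Fgf4 holds the enhancer long known to drive the gene in stem cells, which Sox2 and Oct4 bind side by side. The letters CTTTGTTNNNATGCTAA, a Sox site and a POU site 3 bases apart, were searched on both strands and matched 1 time in the gene, 3.01 kb downstream of the TSS in the 3′ UTR. The match is shown with 5 bases to either side, both sites in capitals.
Fgf4 site (chr7:144864389-144864415, plus strand): aaactCTTTGTTtggATGCTAAtggga
In ctrl a Smarca4 peak of 2.14 kb with a score of 134 ran across this site. In kd 2 narrower peaks, of 0.947 kb (score 83) and 0.363 kb (score 66), lay to either side and left the site itself uncovered. H3K27ac and H3K4me3 islands covered the site in both conditions. These letters matched 50 times on chromosomes 1 to 19, X and Y, of which 3 lay under a Smarca4 peak in ctrl and 0 in kd. None of the 32851 promoters, here taken with their 300 bases, held a match, and 0.00380% of Smarca4 peaks in ctrl did.

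Fgf17 (chr14:70636203-70642268, minus strand) codes for a ligand close to Fgf8 in sequence and in sites of expression. Neither Ezh2 nor H3K27me3 was called in its gene region. Its TSS peak of Smarca4 had a score of 108 in ctrl, stronger than 72.5% of the list, and of 405 in kd, stronger than 98.0%. The single ctrl peak of 4.92 kb was overlapped in kd by 3 peaks of 2.67, 2.52 and 0.714 kb, of which the middle one lay over the TSS. Within 5 kb of the TSS, Smarca4 covered 7.32 kb in ctrl and 8.55 kb in kd. H3K27ac in ctrl reached only the 3′ part of the gene, from 3.87 to 22.1 kb downstream of the TSS and on through Dmtn. In kd a further island of 6.80 kb, called in kd alone, covered the TSS from -4.73 to 2.07 kb. H3K4me3 at the TSS was 3.0 kb wide in ctrl and 6.20 kb in kd. An H3K27me3 island of 8.0 kb, upstream of Fgf17 at Npm2, was called in ctrl alone. The window also holds Dmtn, Npm2 and Xpo7, whose regions are counted with it.

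The 2 receptor genes both carried Ezh2 in ctrl and differed in kd. Fgfr1 (chr8:25518759-25575718, plus strand), the receptor gene through which mESC chiefly read Fgf4, had 1 Ezh2 peak in ctrl, from 0.325 to 0.717 kb in the 5′ UTR. Its score of 46 was higher than that of 21.2% of the list, so it was among the weaker calls. No Ezh2 peak was called in the Fgfr1 window in kd. Across the genome, 0.286% of genes had Ezh2 at the TSS in ctrl alone and 6.02% in kd alone. H3K27me3 ran over the TSS in an island of 44.6 kb in ctrl, from -39.8 to 4.84 kb, and of 13.4 kb in kd, from -12.2 to 1.24 kb. H3K27ac was not called within 1 kb of the TSS in ctrl and was called in kd in an island of 2.80 kb, from -0.958 to 1.84 kb. That island was of middling strength, above 46.3% of its list. Fgfr1 was thereby the only one of the 10 genes with both H3K27ac and H3K27me3 at the TSS in kd, a state of 4.45% of all genes in kd and 1.51% in ctrl. Whether both marks sat on the same allele or in the same cells cannot be told from the lists.

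Most of the acetylation of Fgfr1 lay inside the gene. In an intron, 14.6 to 33.2 kb downstream of the TSS, an H3K27ac island of 18.6 kb outranked 38.3% of the ctrl list. In kd its counterpart of 17.2 kb outranked 99.6%. H3K4me3 islands of 7.20, 8.0 and 2.80 kb in introns were called in kd alone, the first 2 of them over this H3K27ac stretch. In the Fgfr1 window, H3K27ac covered 24.3 kb in ctrl and 39.9 kb in kd and H3K4me3 8.72 and 28.7 kb, while H3K27me3 covered 25.8 and 13.4 kb. Smarca4 was called 23 times in ctrl and 28 times in kd, and its TSS peak outranked 99.6% and 98.0% of the lists. Fgfr1 is on chromosome 8, which stood apart from the other 19 chromosomes (Y not counted) for H3K27me3, Ezh2 and Smarca4. For each ctrl region on chromosome 8 there were 1.26 H3K27me3 islands in kd, against 0.645 to 1.05 on the others, 0.563 Ezh2 peaks, against 0.683 to 0.943, and 0.847 Smarca4 peaks, against 0.865 to 1.37. The part of this in the calls at Fgfr1 was not tested.

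Fgfr2 (chr7:130162451-130266808, minus strand) codes for a receptor of epithelial and trophoblast lineages. Its Ezh2 peak, which lay downstream of the outermost TSS, was 1.03 kb wide with a score of 54 in ctrl and 1.55 kb wide with a score of 253 in kd. It outranked 29.9% of the ctrl list and 70.9% of the kd list. H3K27me3 over the TSS was 28.4 kb wide in ctrl and 23.8 kb in kd. Beyond this island H3K27me3 was called in ctrl in 6 further islands of 2.80 to 10.6 kb, 5 of them in ctrl alone, whereas kd had no further island. The length covered in the window was 62.5 kb in ctrl and 23.8 kb in kd. H3K27ac was not called in the Fgfr2 window in either condition, and H3K4me3 was 3.40 and 2.80 kb wide. Smarca4 was called 7 times in ctrl and 3 times in kd. The peak at the TSS stood above 97.3% of its list in ctrl and 94.3% in kd, and 6 peaks deeper in the gene were called in ctrl alone.

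The 3 feedback genes carried no Ezh2 peak in their windows in either condition. Spry2 (chr14:105891947-105896819, minus strand), an inhibitor of receptor signalling, had an H3K4me3 island of 14.6 kb in ctrl and 10.6 kb in kd and no H3K27me3 island in its window. H3K27ac over the TSS was 12.8 kb wide in ctrl, above 78.1% of its list, and 14.6 kb in kd, above 98.3%. A Smarca4 peak upstream, from -2.61 to -1.50 kb in ctrl, outranked 92.9% of its list in ctrl (score 243) and 99.8% in kd (score 686). A further H3K27ac island upstream, of 6.40 kb in ctrl and 6.80 kb in kd, outranked 88.5% of its list in ctrl and 41.0% in kd. It consisted of 93.4% and 93.6% repeat-masked bases.

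Spry4 (chr18:38586247-38601347, minus strand), a second Sprouty gene, had the longest H3K4me3 islands of the 10 genes, 21.4 kb in ctrl and 17 kb in kd. Its H3K27ac island over the TSS was the strongest of those at the 10 TSS in both conditions, above 98.5% of the list in ctrl and 99.8% in kd, and was 11.4 and 10.6 kb wide. In kd alone 3 shorter H3K27ac islands, of 0.6 to 4.0 kb, were added within and behind the gene. The TSS peak of Smarca4 was 4.74 kb wide in both conditions and outranked 97.7% and 98.8% of the lists. H3K27me3 was called downstream of Spry4 alone, 24.9 kb and more from the TSS in ctrl and 25.7 kb and more in kd.

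Dusp6 (chr10:99263231-99267489, plus strand) differed from the Sprouty genes in its acetylation. H3K27ac was not called anywhere in the Dusp6 window in ctrl and was called in kd in an island of 4.20 kb over the TSS, from -2.63 to 1.57 kb, which outranked 87.1% of the kd list. H3K4me3 was 9.60 kb wide in ctrl and 7.0 kb in kd. Smarca4 at the TSS formed 2 peaks in ctrl, with scores of 219 and 413, and 1 peak of 3.83 kb in kd with a score of 613. The strongest peak outranked 98.4% of the ctrl list and 99.6% of the kd list. The kd peak closed the gap between the ctrl peaks, from -0.152 to 0.212 kb, in which the TSS lies.

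**Figure D3:**
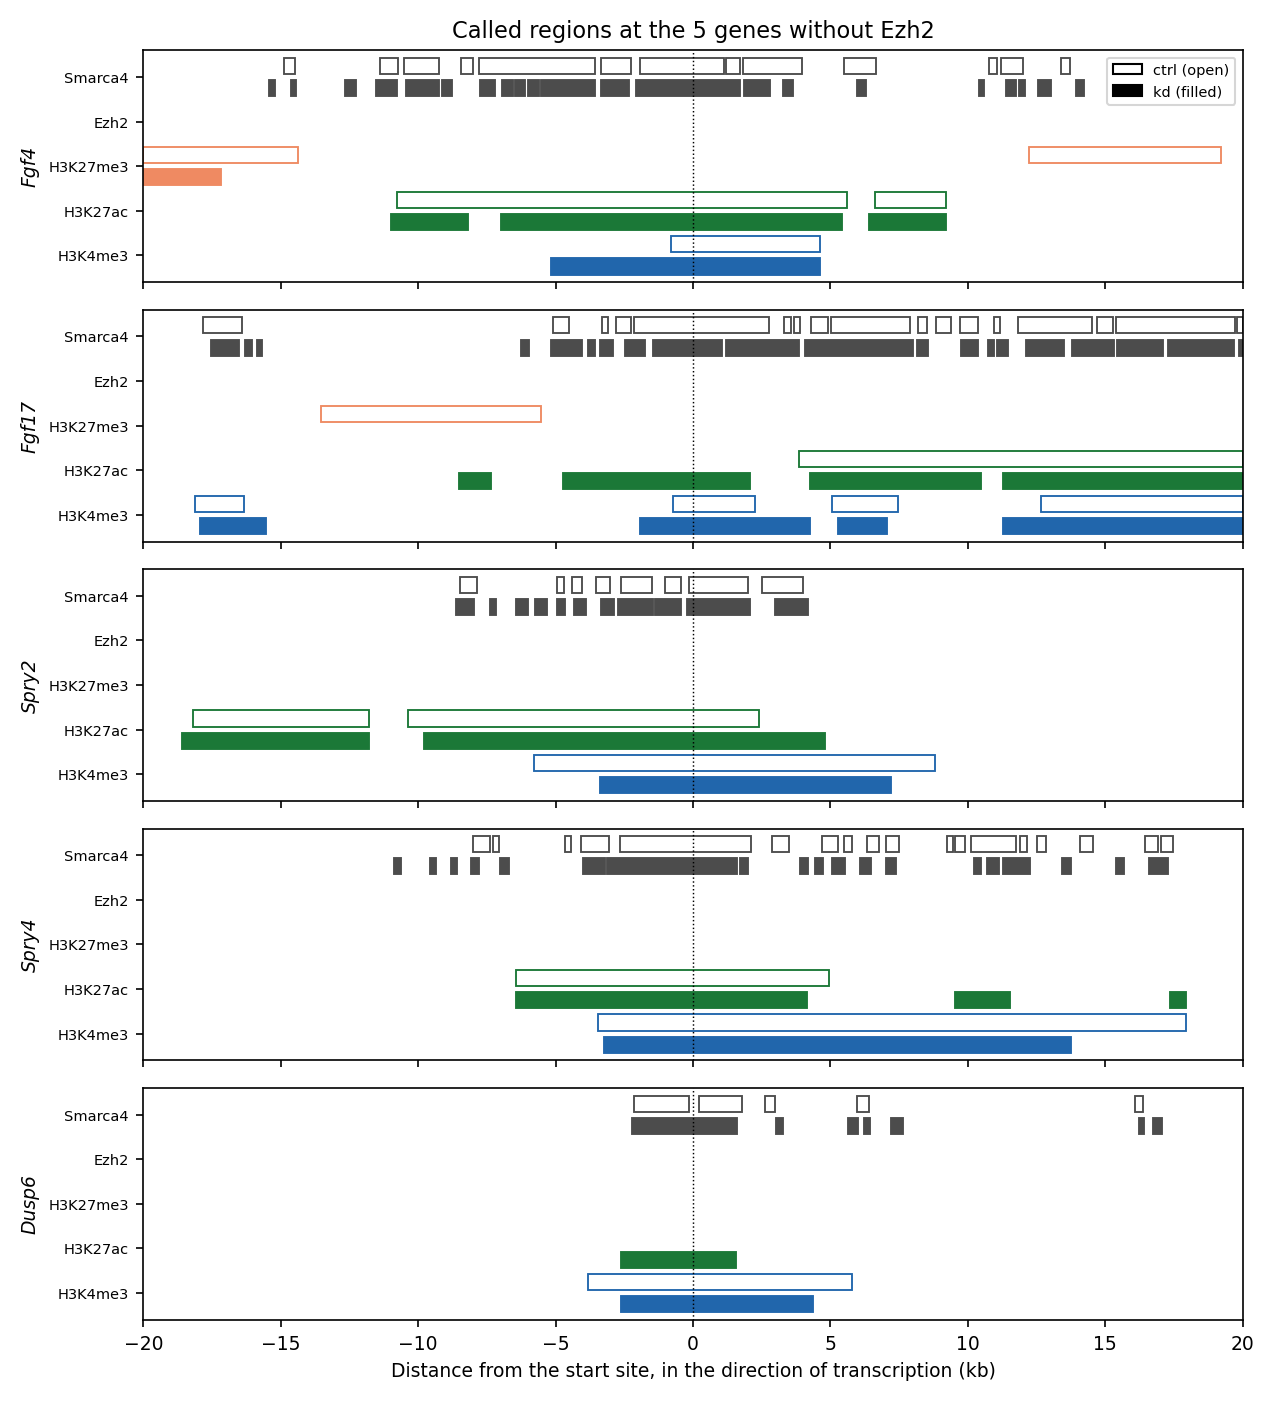
Called regions of the 5 antibodies from 20 kb upstream to 20 kb downstream of the TSS (dotted line) of Fgf4, Fgf17, Spry2, Spry4 and Dusp6; open bars are ctrl, filled bars kd, and the height of a bar carries no value. H3K27ac lies over the TSS in both conditions at Fgf4, Spry2 and Spry4 and in kd alone at Fgf17 and Dusp6.

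The standing of the TSS peaks in their own lists was then set side by side for the 2 sets of genes. It is a rank within 1 library each, the Smarca4 lists differed in length and in median width (435 bp in ctrl and 391 bp in kd), and small steps near the top of a list have no error to be held against. At all 5 genes with Ezh2 in ctrl, the strongest Smarca4 peak at the TSS outranked a smaller share of the list in kd than in ctrl. The difference, kd minus ctrl, was -13.9 percentage points at Fgf5, -14.1 at Fgf8, -41.9 at Fgf15, -1.55 at Fgfr1 and -3.06 at Fgfr2. Of the 5 genes without Ezh2, 4 stood higher in kd, by 25.6 points at Fgf17, 3.87 at Spry2, 1.03 at Spry4 and 1.20 at Dusp6, and Fgf4 differed by -0.432. The same direction held over the genome. Of 1523 genes with Smarca4 at the TSS in both conditions and Ezh2 there in ctrl, 78.5% stood lower in kd with a median of -6.99 points, and of 10373 genes without Ezh2 at the TSS in either condition 46.4% did, with a median of 0.676. With the ctrl list shortened to its 72339 strongest peaks, the length of the kd list, each of the 10 genes kept its sign, Fgf15 at -41.7 points and Fgf17 at 28.1, while Fgf4 came to -0.00415. For Ezh2 itself, Fgf15 and Fgfr2 stood higher in kd by 40.9 and 41.0 points, while Fgf5 and Fgf8 differed by -5.34 and -1.28. Of 1529 genes with Ezh2 at the TSS in both conditions, 33.0% stood lower in kd, and the median was 5.92 points. With the ctrl list of Ezh2 shortened to 5364 peaks, the length of its kd list, Fgf5 came to -2.40 and Fgf8 to -0.224. Fgfr2 came to 58.5, and the ctrl peak of Fgf15 fell out of the list. Each of the 4 genes had more bases under Ezh2 at the TSS in kd, and across the genome 95.8% of paired Ezh2 peaks were wider there.

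**Figure D4:**
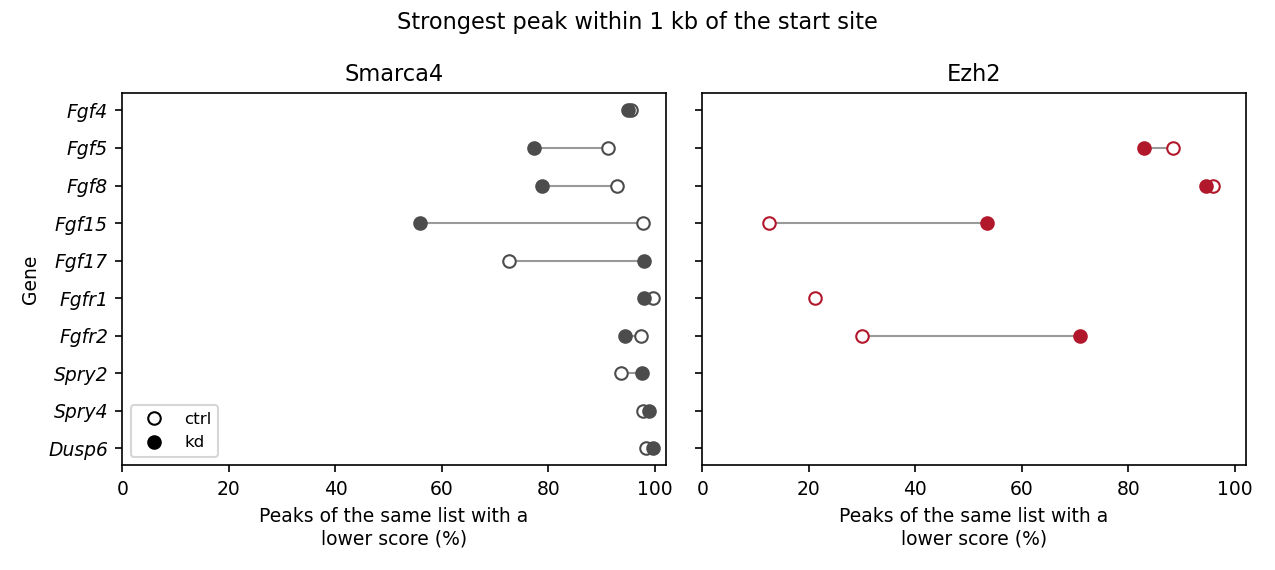
Share of peaks of the same list (%) with a lower score than the strongest peak within 1 kb of the TSS, for Smarca4 (left) and Ezh2 (right); open circles are ctrl, filled circles kd, and a missing circle means no peak. Smarca4 stands lower in kd at Fgf15 (97.7 and 55.8%) and higher at Fgf17 (72.5 and 98.0%), and Ezh2 stands higher in kd at Fgf15 and Fgfr2.

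Summed over the windows, which after joining those of Fgf4 and Fgf15 were 9 with 629 kb in all, H3K27me3 had the longest cover in ctrl and H3K27ac in kd. H3K27me3 was called as 25 islands in ctrl and 12 in kd. Of the 25, 12 (48.0%) had no overlap in kd, against 44.1% of the whole ctrl list, and of the 12 in kd 0 lacked an overlap in ctrl, against 28.9% of the whole kd list. The share in ctrl alone was thus near that of the whole list, and the 0 in kd alone became 1 with a p-value of at most 1e-20 asked for and 3 with 50 kb to either side. H3K27me3 covered 202 kb in ctrl and 116 kb in kd, a ratio of 0.574, beside 0.741 for the summed length of the whole lists, and the mean island width, counted whole, was 10840 and 11250 bp. H3K27ac was called as 8 islands in ctrl and 26 in kd, and covered 92.1 and 134 kb, a ratio of 1.46, beside 1.09 for the whole lists. In kd 15 of the 26 (57.7%) had no overlap in ctrl, against 40.1% of the whole list, and in ctrl 0 of 8 lacked one in kd, against 23.5%. H3K27ac was in ctrl in the windows of 5 of the 10 genes, beside 60.2% of all genes, and in kd of 8, beside 76.6%. All 8 ctrl islands overlapped an island of kd. The mean width was 12550 bp in ctrl and 5600 bp in kd.

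For the other antibodies the ratio of covered length, kd over ctrl, was 1.18 for H3K4me3, 0.922 for Smarca4 and 1.64 for Ezh2, beside 1.33, 0.824 and 1.47 for the whole lists. H3K4me3 was called as 17 islands in ctrl and 23 in kd, over 96.5 and 114 kb, with mean widths of 5847 and 5078 bp. Of the kd islands 5 (21.7%) were called in kd alone, against 29.8% of the list, and of the ctrl islands 0, against 8.15%. In the Fgfr1 window H3K4me3 covered 8.72 kb in ctrl and 28.7 kb in kd. Cover was also longer in kd at Fgf4, Fgf15 and Fgf17 and shorter at Fgf5, Fgf8, Fgfr2, Spry2, Spry4 and Dusp6. Smarca4 was called as 128 peaks in ctrl and 145 in kd, over 117 and 108 kb, with mean widths of 915 and 745 bp. Peaks called in ctrl alone numbered 37 (28.9%, against 43.9% of the list) and in kd alone 45 (31.0%, against 35.6%). Ezh2 was called as 6 peaks in ctrl and 5 in kd, over 4.21 and 6.92 kb, with mean widths of 701 and 1383 bp. The peak of Fgfr1 was the 1 called in ctrl alone (16.7%, against 51.2% of the list), and the second peak of Fgf8 the 1 in kd alone (20.0%, against 49.4%).

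**Figure D5:**
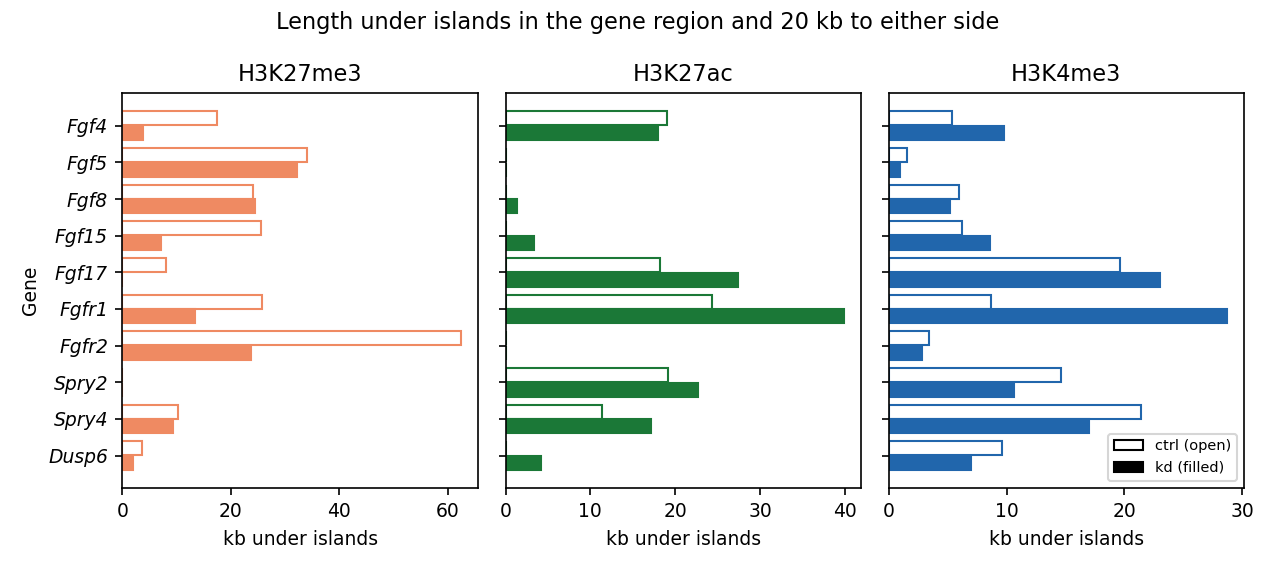
Length (kb) under H3K27me3, H3K27ac and H3K4me3 islands in each gene region with 20 kb to either side, open bars ctrl and filled bars kd. H3K27me3 is longer in ctrl at Fgfr2 (62.5 and 23.8 kb) and Fgf15 (25.5 and 7.20 kb) and alike at Fgf8 (24.1 and 24.5 kb), and H3K27ac is longer in kd at Fgfr1 (24.3 and 39.9 kb).

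A list of 63 further genes of the pathway was read in the same way, 62 of which matched an annotated gene and Spry3 did not. Shares of all genes at the TSS, ctrl and kd, were 35.7% and 29.6% for H3K27me3 and 7.57% and 13.3% for Ezh2. They were 16.1% and 31.6% for H3K27ac, 58.9% and 62.9% for H3K4me3, and 65.1% and 66.1% for Smarca4. The TSS counts of each group and of all 62 genes stand beside these shares. Most of the 17 other ligands carried H3K27me3 and lacked H3K27ac at the TSS. H3K27me3 had a call within 1 kb of the TSS of 14 of 17 in ctrl and 13 in kd, and Ezh2 at 6 and 8. H3K27ac had one at 0 of 17 in ctrl and at 1 in kd, Fgf3. In the gene region H3K27ac had a call at 5 of 17 in each condition, beside 31.6% and 47.8% of all genes. Of the other receptors and co-receptors, H3K27me3 had a TSS call at 5 of 5 in ctrl and 4 in kd. Ezh2 had one at 3 and 4, and H3K27ac at 0 in both conditions. The 19 transducers between receptor and Erk all had H3K4me3 at the TSS in both conditions. H3K27me3 had a TSS call at 6 in ctrl and 5 in kd. Ezh2 had a TSS call at 0 in ctrl and at 1 in kd, Gab1, an adaptor protein. In the gene region Ezh2 had a call at 2 in ctrl and 1 in kd, with 0 in kd alone. H3K27ac had a TSS call at 8 of the 19 in ctrl and 13 in kd.

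Among the other feedback inhibitors, Ezh2 had a TSS call at 1 of 12 in ctrl, Spred3, and at 5 in kd. These 5 were Spry1, Dusp4, Dusp5, Dusp7 and Rasa3. In the gene region, Ezh2 had a call at 3 of 12 in ctrl and 5 in kd. Spry1, Dusp5 and Dusp7 had it there in kd alone, whereas Dusp4 and Rasa3 had it in both conditions. H3K27me3 had a TSS call at 7 in ctrl and 6 in kd, and H3K27ac at 3 and 7. All 9 targets of the pathway had H3K4me3 and Smarca4 at the TSS in both conditions. H3K27ac had a call at 4 of the 9 in ctrl and 7 in kd, with Etv1, Myc and Ier3 in kd alone, and Ezh2 at 0 in ctrl and 1 in kd, Fos. Over all 62 genes, TSS calls of Ezh2 numbered 10 in ctrl and 19 in kd, 1 of them in ctrl alone and 10 in kd alone. Across the genome, 0.286% of genes had such a call in ctrl alone and 6.02% in kd alone. In the gene region, calls of Ezh2 numbered 16 and 22, with 2 in ctrl alone and 8 in kd alone. Of all genes, 12.3% and 15.3% had a call there, 2.93% in ctrl alone and 5.97% in kd alone. TSS calls of H3K27me3 numbered 36 and 31, with 5 in ctrl alone and 0 in kd alone, beside 8.30% and 2.24% of all genes. TSS calls of H3K27ac numbered 15 and 28, with 0 in ctrl alone and 13 in kd alone, beside 1.71% and 17.2% of all genes.

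In the gene region, Ezh2 or H3K27me3 was called in 1 condition alone at 13 of the 62 genes, beside 20.5% of all genes, a count near the background. Those with the longest H3K27me3 in that condition were Fgf14, with Ezh2 in kd alone and 11.6 kb of H3K27me3 in ctrl and 32.2 kb in kd, then Fgf20, Fgf11, Dusp7, Dusp5, Fos, Fgfrl1 and Spred3. Fgf20, a ligand of the inner ear and brain, had 6.55 kb of H3K27me3 in ctrl and 8.79 kb, its whole gene region, in kd. At Fgf11 (7.21 kb) and Fos (4.38 kb) H3K27me3 covered the whole gene region in both conditions, and Ezh2 was called in kd alone. A difference in island length beyond these gene regions would not show in this measure. Dusp5, a nuclear Erk phosphatase, had 4.46 and 4.66 kb, and the decoy receptor gene Fgfrl1 had 7.77 and 4.17 kb, both with Ezh2 in kd alone. Dusp7, a cytoplasmic Erk phosphatase, had 4.8 kb of H3K27me3 in ctrl and none in kd, although its Ezh2 peak was called in kd alone. Spred3 had both calls in ctrl alone, with 3.77 kb of H3K27me3 in ctrl.

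The 10 presence calls of a gene region, 5 antibodies in 2 conditions, gave 4 patterns among the 10 genes. Fgf5, Fgf8, Fgf15 and Fgfr2 shared one with 938 of the 21000 genes (4.47%), all calls present but H3K27ac. Fgf2, Fgf9, Fgf16, Fgf18, Fgfr3 and Kl of the pathway list had the same pattern. Fgf4, Fgf17, Spry2 and Spry4 shared one with 3242 genes (15.4%), that is Smarca4, H3K27ac and H3K4me3 in both conditions without Ezh2 and H3K27me3. It was also that of 17 genes of the pathway list, among them Grb2, Sos1, Nras, Braf, Il17rd, Etv4, Etv5 and Klf2. Dusp6, with H3K27ac in kd alone, had the pattern of 1836 genes (8.74%), Hras, Map2k2 and Etv1 among them. Fgfr1, with Ezh2 in ctrl alone and the other calls present throughout, shared its pattern with 0.571% of all genes. These were 120 counting itself, with none of the pathway list. The pattern rests on the weak ctrl peak of Ezh2 (score 46), which was lost with a score of at least 50 asked for.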

How the data were processed

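Peak and island lists of 10 ChIP-seq libraries were analysed, 1 per antibody and condition. The authors' processing, as given in the methods and the submitters' processing notes, used Trim Galore, Bowtie2 on mm10 and SAMtools 1.9, then MACS2 for Smarca4 and Ezh2 and SICER for the histone marks. The methods name input as the background of the calls, and the titles of the 4 input samples read Input. Other labels of these samples, the peak names and a figure legend of the paper name IgG, so the background is not certain. The deposited peak files give a MACS2 score, and the deposited island files give a SICER p-value, both per library and unscaled. By the methods, Smarca4 and H3K27me3 were processed by Active Motif and the others in the authors' laboratory and core facility, so antibody and laboratory cannot be told apart between these groups.

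Lines outside chromosomes 1 to 19, X and Y, 0 to 61 in a list, were left out. An island was taken to include its end coordinate. Python 3.11.15 with NumPy 2.4.6 was used, and overlaps asked for at least 1 bp. Genes were 21000 protein-coding genes with curated RefSeq transcripts on GRCm38.p6. GENCODE M21 was set aside as the main annotation because its Fgfr2 record spans 2961 kb, with 29 other genes inside, and its Fgf4 record starts 14.0 kb upstream of the RefSeq start. It was kept as an alternative, chosen after seeing the data. The overlap steps were tested on simulated data. With 1 library per group no test was made. Counts of the 10 genes stand beside the share of all genes or regions with the same call. For the pathway list, the shares at the TSS are given once for each antibody, ahead of the group counts. The 10 genes, the pathway list and the markers were chosen with earlier results of these data known. All 10 genes were described, and genes of the pathway list were named where Ezh2 or H3K27me3 was called in the gene region in 1 condition alone (the 8 with the longest H3K27me3), where their calls matched those of 1 of the 10, and, chosen after their values were seen, where a count was of 5 or fewer. Pathway genes with another call that was counted for a group were named in the same way. Some genes of the pathway list are counted but not reported by name here.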

Additional observations from a re-analysis of the deposited data

How the results depend on the processing

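The numbers of the 10 genes with a call, the numbers of regions called in 1 condition alone, the covered lengths and the standing of TSS peaks were recomputed 203 times in all under other settings. Of these values, 135 stayed within 1.5 times the value given or, for lengths and standings, did not differ, 67 moved further and 1 changed direction. The combined states of marks, call patterns, pathway counts, promoter and motif values and the standing of islands were not recomputed. The cause was not tested. No paired analysis was possible because there is 1 library per antibody and condition, and leaving out a replicate was not possible for the same reason. Depth limits every missing call.

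The number of genes with Smarca4 or H3K4me3 in the gene region or at the TSS stayed within 1.5 times in all settings, and the number with H3K27ac or H3K27me3 at the TSS did so too. With stricter limits (peak scores of 50 and over, or a p-value of at most 1e-10 for H3K27ac and 1e-20 for the other marks), 3 genes had Ezh2 in ctrl in the gene region and 3 at the TSS. With GENCODE M21 starts, 3 had it at the TSS. When 50% of a region had to lie in the gene region, H3K27me3 counted 3 genes in ctrl and 3 in kd, and H3K27ac 2 and 3.

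For regions called in 1 condition alone, GENCODE M21 spans moved all 10 counts, the stricter limits 6 and 50 kb to either side 5. The stricter limits gave 24 Smarca4 peaks in ctrl and 24 in kd, 0 and 2 of Ezh2, and 6 and 1 of H3K27me3. Lists of equal length gave 2 of Ezh2 in kd, 7 of H3K27me3 in ctrl and 3 of H3K4me3 in kd. Asking for 50% of a region to be shared gave 2 of Ezh2 in kd. Gene regions alone gave 20 of Smarca4 in ctrl and 14 in kd, 3 of H3K27me3 in ctrl and 7 of H3K27ac in kd. With 50 kb to either side there were 58 of Smarca4 in ctrl, 2 of Ezh2 in ctrl, 3 of H3K27me3 in kd, 26 of H3K27ac in kd and 2 of H3K4me3 in ctrl. GENCODE M21 spans, in which Fgfr2 takes in 29 other genes, gave 131 and 76 of Smarca4 in ctrl and kd, 7 and 3 of Ezh2, 40 and 6 of H3K27me3, 4 and 40 of H3K27ac, and 2 and 8 of H3K4me3.

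The log2 ratio of covered length, kd over ctrl, was -0.12 for Smarca4, 0.72 for Ezh2, -0.80 for H3K27me3, 0.54 for H3K27ac and 0.24 for H3K4me3. In the same order the stricter limits gave -0.15, 1.04, -0.77, 0.42 and 0.22, and lists of equal length -0.09, 0.88, -0.68, 0.42 and 0.15. Gene regions alone gave -0.14 for Smarca4, -0.66 for H3K27me3, 0.70 for H3K27ac and 0.50 for H3K4me3. GENCODE M21 spans gave -0.33, 0.59, -0.91 and 0.61 for the first 4 antibodies and turned H3K4me3 to -0.03. At single genes, the stricter limits ended the ctrl calls of Ezh2 at Fgf15 and Fgfr1 and of H3K4me3 at Fgf8, and lists of equal length ended that of Ezh2 at Fgf15. For the standing of TSS peaks, lists of equal length, chosen after seeing the data, changed the sign at none of the 10 genes for Smarca4 nor at Fgf5, Fgf8 and Fgfr2 for Ezh2, where Fgfr2 went from 41.0 to 58.5 points.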
